A study of Mus musculus with 12 samples.

Results

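The genes described here belong to the response that cells mount when amino acids run short, a programme driven by the transcription factor ATF4. A list of 35 mouse gene symbols was matched to the array's annotation, and every probe set carrying only that symbol was taken. The array measured 34 of the 35 genes through 77 probe sets, of 45101 on the array. No probe set was matched for Pycr1, which was not analysed here. A filter on dim probe sets kept 74 of the 77, and at least 1 probe set of all 34 genes, so that all 34 were among the 20015 features tested. Where a gene had several probe sets (22 of the 34 genes), the kept one with the highest mean stood for it.

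Gene expression was measured on 12 Affymetrix arrays of cultured mouse bone marrow cells, with 3 arrays for each of 4 groups that the series record describes as independent experiments. MEIS1-WT cultures carried a retroviral vector for wildtype MEIS1, a homeodomain cofactor of HOX proteins. MEIS1-deltaHD cultures carried MEIS1 without its homeodomain, the part that binds DNA. M33-MEIS1 cultures carried a construct that the labels name only so, and M33 is another name of the Polycomb gene Cbx2. MIY control cultures carried the vector for yellow fluorescent protein. What the 4 groups shared was the transforming fusion gene NUP98-HOXD13, brought in with the ND13-GFP or ND13pac virus. The marrow had been treated with 5-fluorouracil, and the donor animals were of the cross (C57Bl/6Ly-Pep3b x C3H/HeJ) F1, with no age given. Cells grew for 4 weeks in liquid culture with 10 ng/ml of human interleukin-6, 6 ng/ml of mouse interleukin-3 and 100 ng/ml of mouse stem cell factor. The MEIS1 constructs then came from 2 days of growth on E86 virus producer cells irradiated with 4000 cGy, a step that the labels do not describe for the MIY control. RNA was taken from sorted cells whose gate the labels do not give. Expression was thus driven by retroviral vectors in marrow cells outside the animal, not by the cells' own Meis1 gene.

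ATF4 is made from an mRNA that is translated better when the initiation factor eIF2 is phosphorylated, which the kinases Eif2ak1 to Eif2ak4 do under heme shortage, double-stranded RNA, unfolded protein in the endoplasmic reticulum or amino acid shortage. With partners such as C/EBP proteins, ATF4 binds C/EBP-ATF response elements and raises transcription of amino acid transporters, enzymes that make amino acids, and further stress factors such as Ddit3 and Atf3. An mRNA level of Atf4 is therefore a poor guide to the amount of its protein, which the arrays did not measure.

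The promoter stretches below show the element through which ATF4 is known to act, for the measured genes whose window held it. The RefSeq windows of 250 bases before to 50 after the annotated start (GRCm38.p6) covered 28 of the 34 measured genes. The letters TGATGNAA, searched on both strands, occurred in 7 of these 28 genes (25%), against 4.51% of all 27025 genes with a window and 3.97% of all 32851 windows. The letters TGACGTCA, a cyclic AMP response element, occurred in 1 of the 28 (3.57%), Ppp1r15a, against 2.03% of all genes. Both searches describe these windows only, and the arrays did not measure binding. Each sequence runs 5′ to 3′ along the gene's strand, with the match in capitals.
Atf3: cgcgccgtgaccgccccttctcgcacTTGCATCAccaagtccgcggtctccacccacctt
Nupr1: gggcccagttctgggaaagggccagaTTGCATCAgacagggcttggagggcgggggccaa
Chac1: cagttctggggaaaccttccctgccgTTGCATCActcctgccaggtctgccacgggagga
Asns: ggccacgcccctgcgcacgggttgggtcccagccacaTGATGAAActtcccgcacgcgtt
Slc7a11: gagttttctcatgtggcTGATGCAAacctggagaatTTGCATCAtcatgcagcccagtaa
Slc1a4: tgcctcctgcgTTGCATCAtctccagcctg
Vldlr: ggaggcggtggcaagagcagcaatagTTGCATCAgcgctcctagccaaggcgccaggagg
The Atf3 stretch lay at chr1:191183410-191183469 (- strand) and its match began 110 bases before the start. Nupr1, at chr7:126625547-126625606 (- strand), also had its match 110 bases before the start. For Chac1 the stretch was chr2:119351023-119351082 (+ strand), with the match beginning 193 bases before the start. The Asns stretch, chr6:7693210-7693269 (- strand), held the element in the forward direction 23 bases before the start. Slc7a11, at chr3:50443637-50443696 (- strand), had 2 matches in opposite directions, beginning 66 and 47 bases before the start. The match of Slc1a4, within chr11:20332699-20332728 (- strand), began 4 bases before the start and ran across it. In Vldlr, at chr19:27216794-27216853 (+ strand), the match began 200 bases before 1 of the annotated starts. All stretches lie in promoters, apart from the bases of Slc1a4 after its start, which belong to the transcript.

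Signals are on the linear scale of the authors' software, and every array had been scaled to the same trimmed mean. The median signal of an array was lower with the constructs, at 14.3 to 15.3 for MEIS1-WT, 13.1 to 13.9 for MEIS1-deltaHD and 14.04 to 16.04 for M33-MEIS1, against 17.4 to 21.6 in MIY control. Signs of RNA quality and labelling also differed without overlap, but in opposite directions for actin and Gapdh. The ratio of 3′ to 5′ signal was 1.30 to 1.48 for actin and 0.811 to 0.882 for Gapdh with the constructs, against 1.49 to 1.51 and 0.774 to 0.801 in MIY control. Correlations across features were 0.982 to 0.989 within a group and 0.947 to 0.989 between groups, which overlap. Summed signals of 7 of 7 monocyte and macrophage markers moved with the groups, at 495 to 641 for MEIS1-WT, 2182 to 2358 for MEIS1-deltaHD and 3407 to 3899 for M33-MEIS1, against 11480 to 12810 in MIY control. The leukocyte marker Ptprc read 1507 to 1621, 1767 to 1875 and 1972 to 2108 in the same order of constructs, against 2568 to 3127 in MIY control. Neutrophil granule markers (7 of 7 measured) summed to 13350 to 14040 in MEIS1-WT cultures, 19070 to 19900 in MEIS1-deltaHD cultures and 18930 to 22070 in M33-MEIS1 cultures, against 13610 to 16630 in MIY control. Mast cell and basophil markers (5 of 5 measured) summed to 1504 to 1616 in MEIS1-WT cultures, 1946 to 2206 in MEIS1-deltaHD cultures and 4114 to 4613 in M33-MEIS1 cultures, against 2663 to 4048 in MIY control. Such a sum is set mostly by the brightest markers. Of these 5 markers, 0, 1 and 2 were called higher and 4, 3 and 0 lower against control, with the constructs in turn. Set against control, 3 of 4 progenitor markers were called higher for MEIS1-WT, while for either other construct 1 was called higher and 2 lower. Over all features 13.3%, 13.8% and 12.4% were called higher and 19.4%, 22.7% and 18.3% lower with the constructs in turn. Nothing is read from these marker counts. Of 7 fibroblast markers 4 were measured, and their sum lay between 26.99 and 85.65 on every array, close to background. In such bulk samples fewer cells of a type and less RNA per cell cannot be told apart.

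Against MIY control most of the 34 genes were lower with each construct. The genes were chosen with earlier results of these data known, so these counts describe the list and do not test it. With MEIS1-WT 24 genes were lower and 1, Ddit4, was higher, where 19.4% and 13.3% of all features were called lower and higher. With MEIS1-deltaHD 28 were lower and 0 higher, against 22.7% and 13.8% of all features. With M33-MEIS1 29 were lower and 0 higher, against 18.3% and 12.4% of all features. The median log2 difference of the 34 genes was -0.69 for MEIS1-WT, -0.78 for MEIS1-deltaHD and -0.89 for M33-MEIS1, beside medians of -0.12, -0.17 and -0.13 over all features. Of the genes called lower, 13, 14 and 13 had a log2 difference of -1 or below. The share of all features at that cut was not counted, so nothing is read from these 3 counts. The groups of arrays did not overlap for 24, 31 and 29 of the 34 genes, where 42.9%, 48.1% and 40% of all features did not overlap in either direction. A call means an adjusted p below 0.05 from limma over all features, and a log2 difference is taken on log2(signal + 16), which understates the change of dim genes. The ± after a log2 difference is its standard error in the limma fit, and the ± after a mean signal is the SD between arrays. The 3 comparisons share the MIY control arrays, so that they are not independent of each other. The part of the cell type markers, the 3′ to 5′ ratios and the culture on producer cells in these counts was not tested. When each array was instead scaled to the same median, 17, 17 and 20 genes were lower and 2, 4 and 1 higher, while 7.23%, 6.34% and 5.59% of all features were lower and 24.8%, 29.3% and 23.3% higher. That scaling moved the medians over all features to 0.10, 0.13 and 0.096.

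**Figure D1:**
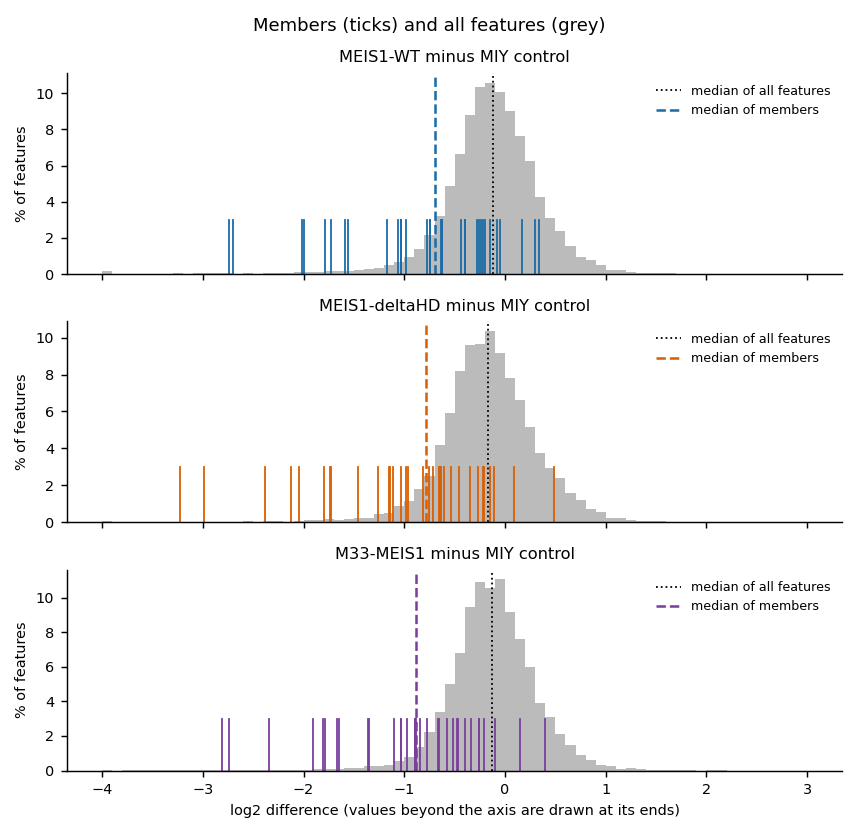
Histogram of the log2 differences of all 20015 features (grey, percent of features) with the 34 genes as coloured ticks, for each construct minus MIY control. The dashed medians of the 34 genes (-0.69, -0.78 and -0.89) lie left of the dotted medians of all features (-0.12, -0.17 and -0.13).

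Atf4 mRNA was modestly lower with each construct. Its signals were 2118, 2099 and 2131 with MEIS1-WT, 1991, 1972 and 2107 with MEIS1-deltaHD, 1896, 1971 and 1952 with M33-MEIS1 and 2773, 2726 and 2877 in MIY control. All construct arrays lay below all control arrays. The log2 differences were -0.40 ± 0.065 (adjusted p = 3.17e-05) for MEIS1-WT, -0.46 ± 0.065 (adjusted p = 4.1e-06) for MEIS1-deltaHD and -0.52 ± 0.065 (adjusted p = 9.95e-07) for M33-MEIS1. Scaled to the array median they were -0.031, 0.042 and -0.16, with no call, and the sign turned for MEIS1-deltaHD. A second Atf4 probe set differed by -0.56, -0.96 and -0.83 (adjusted p = 0.000135, 8.59e-08 and 1.04e-06 when probe sets were tested singly). That probe set is of a kind that can also match transcripts of other genes.

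The other stress transcription factors were far lower than in control. Atf5, a factor of the same family that is also controlled at translation, had signals of 64.7, 40.8 and 43.6 with MEIS1-WT, 35.4, 36.1 and 45.6 with MEIS1-deltaHD, 48.97, 46.8 and 42.1 with M33-MEIS1 and 413, 458 and 387 in MIY control. The construct arrays overlapped one another, and the highest of them stayed far below the lowest control array. Atf5 differed from MIY control by -2.74 ± 0.14 (adjusted p = 9.65e-14) for MEIS1-WT, -2.99 ± 0.14 (adjusted p = 3.2e-14) for MEIS1-deltaHD and -2.81 ± 0.14 (adjusted p = 1.49e-13) for M33-MEIS1. Atf3, a stress-induced factor that mostly represses transcription, had signals of 58.02, 68.9 and 72.7 with MEIS1-WT, 44.01, 43.5 and 86.5 with MEIS1-deltaHD, 53.7, 51.6 and 59.1 with M33-MEIS1 and 214, 286 and 205 in MIY control. The third MEIS1-deltaHD array was the highest of the construct arrays, and no construct array reached the control arrays. Atf3 differed by -1.59 ± 0.17 (adjusted p = 5.57e-08) for MEIS1-WT, -1.79 ± 0.17 (adjusted p = 8.69e-09) for MEIS1-deltaHD and -1.81 ± 0.17 (adjusted p = 1.1e-08) for M33-MEIS1. Ddit3, also known as CHOP, a factor linked to cell death under prolonged stress, had signals of 195, 189.5 and 238 with MEIS1-WT, 119, 110.4 and 191 with MEIS1-deltaHD, 180.1, 121 and 131 with M33-MEIS1 and 495, 473 and 493 in MIY control. No construct array came near the control arrays, and MEIS1-WT arrays were the highest of the constructs with 1 MEIS1-deltaHD array among them. Ddit3 differed by -1.18 ± 0.15 (adjusted p = 7.09e-07) for MEIS1-WT, -1.73 ± 0.15 (adjusted p = 1.63e-09) for MEIS1-deltaHD and -1.67 ± 0.15 (adjusted p = 4.09e-09) for M33-MEIS1. A dim second Ddit3 probe set differed by 0.28, 0.21 and 0.17 and was not called.

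Nupr1, a small nuclear protein induced by many stresses, had the lowest log2 difference of the list with MEIS1-deltaHD. It had signals of 334, 330.1 and 426 with MEIS1-WT, 124, 129 and 189 with MEIS1-deltaHD, 212, 209 and 209 with M33-MEIS1 and 1575, 1421 and 1480.3 in MIY control. On the probe set used, the 4 groups did not overlap, with MEIS1-deltaHD lowest, then M33-MEIS1, MEIS1-WT and MIY control. Nupr1 differed from MIY control by -2.00 ± 0.12 (adjusted p = 1.56e-12) for MEIS1-WT, -3.23 ± 0.12 (adjusted p = 4.49e-16) for MEIS1-deltaHD and -2.74 ± 0.12 (adjusted p = 1.16e-14) for M33-MEIS1, and its second probe set by -2.27, -2.98 and -2.86.

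Among the remaining regulators, which act on translation, growth signalling or glutathione, the values were smaller. Chac1, an enzyme that breaks down glutathione, averaged 105 ± 8.22 with MEIS1-WT, 81.8 ± 17.4 with MEIS1-deltaHD, 85.3 ± 6.33 with M33-MEIS1 and 173 ± 9.95 in MIY control (SD, n = 3). It was lower with all constructs, at -0.64 for MEIS1-WT, -0.96 for MEIS1-deltaHD and -0.90 for M33-MEIS1, although its MEIS1-WT value of -0.31 after median scaling was not called. Eif4ebp1, which holds back cap-dependent translation, differed by -0.75 for MEIS1-WT, -0.82 for MEIS1-deltaHD and -0.89 for M33-MEIS1, and its 3 probe sets were all lower with each construct. Sesn2, an inhibitor of mTORC1 signalling under leucine shortage, was lower with MEIS1-deltaHD (-0.64 ± 0.18 (adjusted p = 0.00648)) and M33-MEIS1 (-0.66 ± 0.18 (adjusted p = 0.00628)). With MEIS1-WT its value of -0.40 ± 0.18 (adjusted p = 0.0946) was not called, but it was without replicate 2 or 3 of MEIS1-WT (-0.54) and with the mean of its probe sets (-0.52). Under median scaling the Sesn2 values of -0.23 and -0.37 for MEIS1-deltaHD and M33-MEIS1 were not called, nor was the MEIS1-deltaHD value with quantile normalization (-0.47). Ppp1r15a, the subunit that directs a phosphatase to eIF2, was lower with MEIS1-deltaHD (-0.65 ± 0.13 (adjusted p = 0.000276)) and M33-MEIS1 (-0.85 ± 0.13 (adjusted p = 1.44e-05)). Its MEIS1-WT value of -0.24 ± 0.13 (adjusted p = 0.171) was not called, and the call was made without replicate 3 of MIY control (-0.39). Median scaling ended the MEIS1-deltaHD call of Ppp1r15a, at -0.17.

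Ddit4, an inhibitor of mTORC1, was the only member called in opposite directions by these comparisons. Its signals were 288, 341 and 411 with MEIS1-WT, 153, 158 and 205 with MEIS1-deltaHD, 197, 240.2 and 231 with M33-MEIS1 and 308, 245 and 256 in MIY control. The MEIS1-WT arrays overlapped the control arrays, while every array of the other 2 constructs was below control. Ddit4 differed by 0.34 ± 0.12 (adjusted p = 0.0401) for MEIS1-WT, -0.61 ± 0.12 (adjusted p = 0.000374) for MEIS1-deltaHD and -0.26 ± 0.12 (adjusted p = 0.122) for M33-MEIS1. The MEIS1-WT call was lost without replicate 2 or 3 of MEIS1-WT or replicate 2 or 3 of MIY control (0.21 to 0.34), and also with quantile normalization (0.32), an offset of 1, no filter or no intensity trend. The MEIS1-deltaHD value was -0.14 after median scaling and was then not called. In all, 7 of the 10 factors and stress regulators were lower for MEIS1-WT, 10 for MEIS1-deltaHD and 9 for M33-MEIS1. The shares of all features called lower were 19.4%, 22.7% and 18.3%.

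The enzymes of serine, glycine and one-carbon metabolism gave mixed values. Of these 8 genes 4 were lower for MEIS1-WT, 4 for MEIS1-deltaHD and 6 for M33-MEIS1, where 19.4%, 22.7% and 18.3% of all features were. Their median log2 differences were -0.24, -0.21 and -0.37. Among the probe sets used for these genes the largest differences were those of Aldh1l2, a mitochondrial enzyme that releases carbon dioxide from formyl-tetrahydrofolate. Its signals were 7.31, 8.22 and 22.9 with MEIS1-WT, 7.35, 18.04 and 17.9 with MEIS1-deltaHD, 14.8, 11.6 and 23.00 with M33-MEIS1 and 57.2, 75.4 and 67.4 in MIY control. The construct arrays scattered widely at low signals, and every control array was above them. Aldh1l2 differed by -1.56 ± 0.22 (adjusted p = 3.7e-06) for MEIS1-WT, -1.46 ± 0.22 (adjusted p = 8.73e-06) for MEIS1-deltaHD and -1.36 ± 0.22 (adjusted p = 2.99e-05) for M33-MEIS1. Mthfd2, the mitochondrial folate enzyme of dividing cells, averaged 629 ± 48.9 with MEIS1-WT, 668 ± 42.6 with MEIS1-deltaHD, 610 ± 33.5 with M33-MEIS1 and 984 ± 144 in MIY control. It was lower by the call with each construct, at -0.62 for MEIS1-WT, -0.54 for MEIS1-deltaHD and -0.67 for M33-MEIS1, and its values of -0.26, -0.042 and -0.31 under median scaling were not called.

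The serine synthesis genes themselves were bright and moved little on the probe sets used for them. Phgdh, which starts the pathway, averaged 2003 ± 96.6 with MEIS1-WT, 2084 ± 65.9 with MEIS1-deltaHD, 2098 ± 199.7 with M33-MEIS1 and 2428 ± 138 in MIY control. The Phgdh differences of -0.27 for MEIS1-WT, -0.22 for MEIS1-deltaHD and -0.21 for M33-MEIS1 passed the test, but turned to 0.091, 0.29 and 0.15 under median scaling, where the MEIS1-deltaHD value was called higher. Without the intensity trend none of the Phgdh values was called. The dimmest Phgdh probe set was lower, at -0.46, -0.45 and -0.53 (adjusted p = 3.24e-05, 3.7e-05 and 7.8e-06 when tested singly). Another differed by -0.37, -0.16 and -0.25, called lower singly with MEIS1-WT and M33-MEIS1 (adjusted p = 0.000405 and 0.0118). The remaining Phgdh probe set differed by -0.20, -0.063 and -0.13, called lower singly with MEIS1-WT (adjusted p = 0.0294). All Phgdh probe sets were of the kind shared between transcripts, which can include transcripts of other genes. Phgdh therefore went untested when that kind was left out. The MEIS1-deltaHD call of Phgdh was lost without replicate 1, 2 or 3 of MEIS1-deltaHD or replicate 1 or 3 of MIY control (-0.23 to -0.18). Its M33-MEIS1 call was lost without replicate 1 or 2 of M33-MEIS1 or replicate 1 or 3 of MIY control (-0.23 to -0.14), with no filter and in a fit of only the 2 groups. Psat1, the transaminase of the next step, averaged 1986 ± 53.4 with MEIS1-WT, 1821 ± 24.02 with MEIS1-deltaHD, 1668 ± 53.3 with M33-MEIS1 and 2203 ± 171 in MIY control. It was lower with MEIS1-deltaHD (-0.27 ± 0.07 (adjusted p = 0.00371)) and M33-MEIS1 (-0.39 ± 0.07 (adjusted p = 0.000108)), and these values were 0.23 and -0.037 under median scaling. With MEIS1-WT it differed by -0.15 ± 0.07, called only with quantile normalization (-0.22) or without replicate 2 of MIY control (-0.21). Psph, the phosphatase that completes serine synthesis, passed the test with M33-MEIS1 alone (-0.47 ± 0.13 (adjusted p = 0.00736)). That Psph call was lost without replicate 3 of M33-MEIS1 or replicate 3 of MIY control (-0.36 to -0.30) and under median scaling (-0.13) or without the intensity trend. Its values of -0.22 and -0.11 with MEIS1-WT and MEIS1-deltaHD were not called, although the MEIS1-WT value was called without replicate 2 of MIY control (-0.40).

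Shmt2 makes glycine and one-carbon units from serine in mitochondria, and Shmt1 does so in the cytosol. Shmt2 was lower with MEIS1-WT (-0.26 ± 0.088 (adjusted p = 0.0238)) and M33-MEIS1 (-0.34 ± 0.088 (adjusted p = 0.00417)), and its MEIS1-deltaHD value of -0.21 ± 0.088 (adjusted p = 0.0701) was not called. The MEIS1-WT call of Shmt2 was lost without replicate 1 or 3 of MEIS1-WT or replicate 3 of MIY control (-0.26 to -0.20), without shared probe sets (-0.20) or without the intensity trend. The MEIS1-deltaHD call of Shmt2 was made without replicate 1 or 2 of M33-MEIS1 (-0.21), with quantile normalization (-0.32) and in a fit of only the 2 groups. Under median scaling Shmt2 stood at 0.10 with MEIS1-WT and 0.015 with M33-MEIS1. Mthfd1l, which makes formate in mitochondria, differed by 0.17 for MEIS1-WT, 0.087 for MEIS1-deltaHD and 0.14 for M33-MEIS1, none of them called. Without replicate 3 of MIY control, Mthfd1l was called higher with MEIS1-WT (0.27) and M33-MEIS1 (0.24), and it was called higher with all constructs under median scaling.

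The probe sets of Shmt1 disagreed. The brightest Shmt1 probe set differed by -0.077 for MEIS1-WT, -0.15 for MEIS1-deltaHD and -0.10 for M33-MEIS1 and was not called. A second Shmt1 probe set averaged 593 ± 20.6 for MEIS1-WT, 542 ± 32.4 for MEIS1-deltaHD and 476 ± 4.21 for M33-MEIS1, against 288 ± 9.84 in MIY control. It was higher with each construct, at 1.00, 0.87 and 0.70 (adjusted p = 5.67e-10, 6.3e-09 and 2.99e-07). Another Shmt1 probe set was also higher, at 0.71, 0.67 and 0.52. The remaining one differed by 0.12, -0.06 and -0.13 and was not called. The mean of the Shmt1 probe sets was therefore called higher with each construct, and no direction for the gene as a whole is given here. The brightest Shmt1 probe set was called lower with MEIS1-deltaHD without replicate 3 of MIY control (-0.26).

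**Figure D2:**
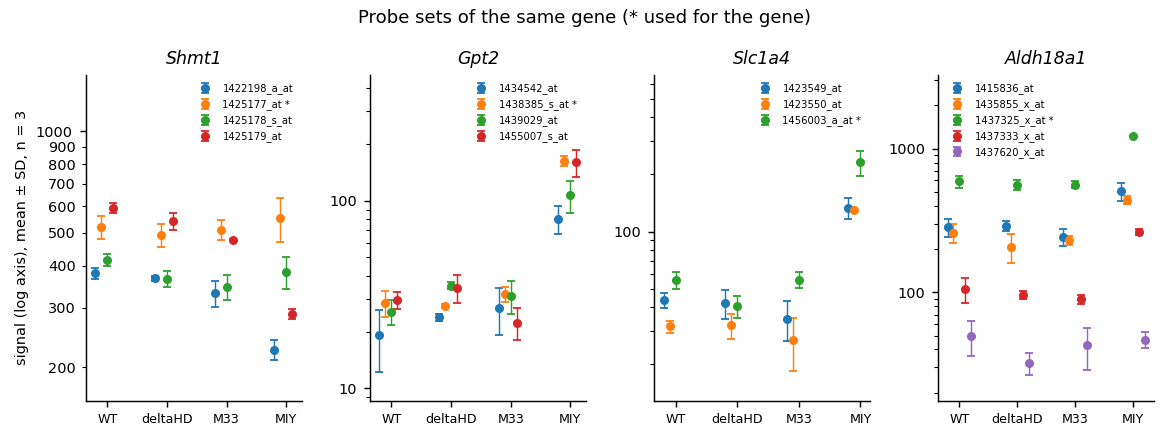
Signals of each probe set (mean and SD of 3 arrays, log axis) of Shmt1, Gpt2, Slc1a4 and Aldh18a1 by group, with a star at the probe set used for the gene. All 4 probe sets of Gpt2 and all 3 of Slc1a4 are lower with each construct than in MIY control, 4 of the 5 of Aldh18a1 are, and those of Shmt1 differ among themselves.

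Other enzymes that make amino acids were lower, apart from Cbs. Asns, which makes asparagine from aspartate and glutamine and is a standard marker of the response, had signals of 980.4, 1055 and 981 with MEIS1-WT, 1080.2, 1087 and 955 with MEIS1-deltaHD, 1036, 975 and 997 with M33-MEIS1 and 2217, 1773 and 2247 in MIY control. The construct arrays lay close together, and every control array was far above them, with the second control array the lowest of its group. Asns differed by -1.03 ± 0.085 (adjusted p = 7.35e-10) for MEIS1-WT, -0.98 ± 0.085 (adjusted p = 2.02e-09) for MEIS1-deltaHD and -1.03 ± 0.085 (adjusted p = 1.24e-09) for M33-MEIS1. Aldh18a1, the enzyme that opens proline synthesis, had signals of 639, 604 and 529 with MEIS1-WT, 605, 525 and 547 with MEIS1-deltaHD, 525, 576 and 582 with M33-MEIS1 and 1232, 1223 and 1218 in MIY control. The control arrays lay close together and far above all others. Aldh18a1 differed by -1.04 ± 0.082 (adjusted p = 3.39e-10) for MEIS1-WT, -1.11 ± 0.082 (adjusted p = 1.27e-10) for MEIS1-deltaHD and -1.10 ± 0.082 (adjusted p = 2.11e-10) for M33-MEIS1. The dimmest Aldh18a1 probe set differed by 0.037, -0.39 and -0.12 and was not called.

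Gpt2, the mitochondrial alanine transaminase, had signals of 30.5, 23.4 and 31.7 with MEIS1-WT, 28.3, 27.6 and 26.8 with MEIS1-deltaHD, 28.6, 34.1 and 32.6 with M33-MEIS1 and 161, 155 and 175 in MIY control. The construct arrays overlapped one another and lay far below control. Gpt2 differed by -2.02 ± 0.14 (adjusted p = 4.29e-11) for MEIS1-WT, -2.04 ± 0.14 (adjusted p = 4.27e-11) for MEIS1-deltaHD and -1.91 ± 0.14 (adjusted p = 2.09e-10) for M33-MEIS1, and each of its 4 probe sets was lower with each construct. Cth, which makes cysteine from cystathionine, had signals of 19.3, 2.02 and 5.002 with MEIS1-WT, 17.1, 15.1 and 8.77 with MEIS1-deltaHD, 26.7, 20.9 and 1.701 with M33-MEIS1 and 119, 137 and 161 in MIY control. The construct signals scattered near background, and the control arrays were clear of them. Cth differed by -2.70 ± 0.27 (adjusted p = 1.7e-08) for MEIS1-WT, -2.39 ± 0.27 (adjusted p = 1.33e-07) for MEIS1-deltaHD and -2.35 ± 0.27 (adjusted p = 2.49e-07) for M33-MEIS1. Cbs, the enzyme before it in the pathway, was dim in all groups, at 13.6 ± 10.9 with MEIS1-WT, 16.2 ± 3.15 with MEIS1-deltaHD, 14.05 ± 1.73 with M33-MEIS1 and 6.98 ± 3.301 in MIY control, and was not called, although its MEIS1-deltaHD value was called higher with quantile normalization (0.70) or median scaling (0.68), and its MEIS1-WT value without replicate 2 of MEIS1-WT (0.64). The other Cbs probe set differed by -0.48, -0.68 and -0.69, the opposite sign to the values of 0.30, 0.49 and 0.39 for the first. Tested singly, that other probe set was called lower with MEIS1-deltaHD and M33-MEIS1 (adjusted p = 0.0211 and 0.0214). It stood for Cbs when certain arrays were left out, and Cbs was then called lower with MEIS1-deltaHD in 7 such fits (-0.83 to -0.68) and with M33-MEIS1 in 7 (-0.77 to -0.69).

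By the probe set used for each gene, all 9 amino acid transporters were lower with each construct, where 19.4%, 22.7% and 18.3% of all features were called lower. Their median log2 differences were -0.99, -1.03 and -0.97. Slc1a4, a carrier of alanine, serine and cysteine, had signals of 53.8, 51.04 and 62.1 with MEIS1-WT, 34.8, 41.3 and 45.5 with MEIS1-deltaHD, 53.8, 61.6 and 51.3 with M33-MEIS1 and 222, 271 and 203 in MIY control. On this probe set MEIS1-deltaHD arrays were lowest, and the control arrays were clear of all others. On the other Slc1a4 probe sets M33-MEIS1 had the lowest means (34.7 and 26.8), and no difference between constructs was called. Slc1a4 differed by -1.79 ± 0.13 (adjusted p = 1.45e-10) for MEIS1-WT, -2.13 ± 0.13 (adjusted p = 8.55e-12) for MEIS1-deltaHD and -1.79 ± 0.13 (adjusted p = 2.72e-10) for M33-MEIS1. Slc6a9, a glycine transporter, had signals of 72.9, 45.2 and 73.6 with MEIS1-WT, 59.2, 59.1 and 68.8 with MEIS1-deltaHD, 64.2, 68.3 and 68.9 with M33-MEIS1 and 263, 242 and 229 in MIY control. The lowest construct array was the second of MEIS1-WT, and none came near control. Slc6a9 differed by -1.73 ± 0.14 (adjusted p = 3.4e-10) for MEIS1-WT, -1.74 ± 0.14 (adjusted p = 4.07e-10) for MEIS1-deltaHD and -1.65 ± 0.14 (adjusted p = 1.36e-09) for M33-MEIS1. Slc7a3, a carrier of cationic amino acids, was dim, with signals of 17.5, 15.8 and 16.8 with MEIS1-WT, 11.5, 20.4 and 3.64 with MEIS1-deltaHD, 8.101, 11.5 and 8.996 with M33-MEIS1 and 55.5, 52.9 and 39.2 in MIY control. Its control arrays still lay above all others. Slc7a3 differed by -0.99 ± 0.21 (adjusted p = 0.000588) for MEIS1-WT, -1.26 ± 0.21 (adjusted p = 3.34e-05) for MEIS1-deltaHD and -1.35 ± 0.21 (adjusted p = 1.99e-05) for M33-MEIS1.

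Slc7a5 imports leucine and other large neutral amino acids, and Slc7a11 exchanges cystine for glutamate. Both work bound to the heavy chain Slc3a2. Slc7a5 had signals of 499, 476 and 417 with MEIS1-WT, 486, 418 and 418 with MEIS1-deltaHD, 403, 526 and 505 with M33-MEIS1 and 1042, 949 and 970.2 in MIY control. The construct arrays overlapped one another and all lay well below control. Slc7a5 differed by -1.07 ± 0.10 (adjusted p = 3.51e-09) for MEIS1-WT, -1.14 ± 0.10 (adjusted p = 1.45e-09) for MEIS1-deltaHD and -1.03 ± 0.10 (adjusted p = 1.09e-08) for M33-MEIS1. Slc7a11 had signals of 24.7, 34.9 and 28.1 with MEIS1-WT, 27.3, 26.2 and 34.3 with MEIS1-deltaHD, 28.9, 28.7 and 35.8 with M33-MEIS1 and 77.7, 80.6 and 70.3 in MIY control, again with no overlap between constructs and control. It differed by -1.03 ± 0.15 (adjusted p = 1.02e-05) for MEIS1-WT, -1.03 ± 0.15 (adjusted p = 1e-05) for MEIS1-deltaHD and -0.97 ± 0.15 (adjusted p = 2.97e-05) for M33-MEIS1. Slc3a2 averaged 1308 ± 46.6 with MEIS1-WT, 1339 ± 52.5 with MEIS1-deltaHD, 1176 ± 24.4 with M33-MEIS1 and 2204 ± 69.2 in MIY control, which is bright in all groups. Its differences were -0.75 for MEIS1-WT, -0.71 for MEIS1-deltaHD and -0.90 for M33-MEIS1, and the MEIS1-deltaHD value of -0.21 was not called under median scaling.

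Smaller transporter differences were those of Slc7a1, Slc1a5 and Slc38a2, which were near the size of that of Slc3a2 or below it. Slc7a1, the main cationic amino acid carrier, differed by -0.43 for MEIS1-WT, -0.66 for MEIS1-deltaHD and -0.58 for M33-MEIS1. Under median scaling its values of -0.072, -0.16 and -0.22 were not called, nor was the MEIS1-WT mean over its probe sets (-0.13). Slc1a5, a glutamine carrier, differed by -0.62 for MEIS1-WT, -0.75 for MEIS1-deltaHD and -0.77 for M33-MEIS1, and median scaling ended its calls with MEIS1-WT (-0.26) and MEIS1-deltaHD (-0.26). Slc38a2, a carrier induced by amino acid shortage, differed by -0.78 for MEIS1-WT, -0.65 for MEIS1-deltaHD and -0.47 for M33-MEIS1. Median scaling ended the calls of Slc38a2 with MEIS1-deltaHD (-0.15) and M33-MEIS1 (-0.11). A dim further probe set of each of these genes was called with no construct. Its values were 0.28, -0.01 and -0.21 for Slc7a1, -0.21, -0.34 and -0.059 for Slc1a5, and -0.36, -0.45 and -0.035 for Slc38a2.

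Of the surface and secreted targets, Vldlr, a lipoprotein receptor, differed between constructs. Its signals were 42.5, 51.2 and 42.5 with MEIS1-WT, 16.5, 4.85 and 30.2 with MEIS1-deltaHD, 17.3, 21.95 and 27.7 with M33-MEIS1 and 50.4, 74.3 and 41.8 in MIY control. The MEIS1-WT arrays overlapped control, and the other construct arrays lay below both. Vldlr differed by -0.20 ± 0.23 (adjusted p = 0.549) for MEIS1-WT, -1.16 ± 0.23 (adjusted p = 0.000228) for MEIS1-deltaHD and -0.88 ± 0.23 (adjusted p = 0.00384) for M33-MEIS1. Without probe sets shared between transcripts, Vldlr rested on a dimmer probe set and its M33-MEIS1 value of -0.47 was not called. Stc2, a secreted glycoprotein, was dim, at 16.1 ± 3.56 with MEIS1-WT, 9.96 ± 1.799 with MEIS1-deltaHD, 12.1 ± 6.24 with M33-MEIS1 and 17.1 ± 3.21 in MIY control, and was not called.

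**Figure D3:**
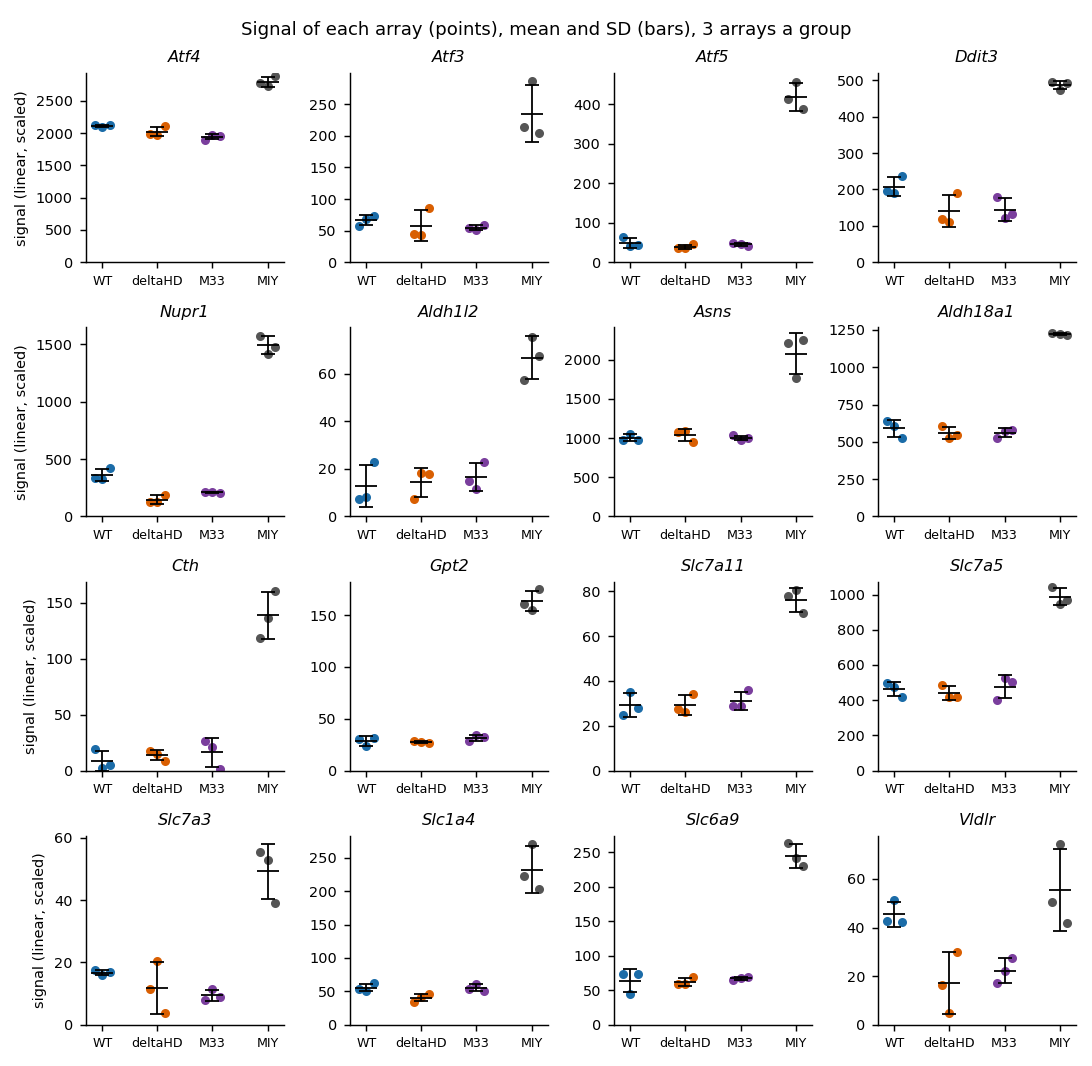
Signal of every array (points, linear axis starting at 0) with the mean and SD of 3 arrays for Atf4 and the 15 genes that passed with a log2 difference of at least 1 in size against MIY control. Control arrays stand above all construct arrays in each panel except Vldlr, where the MEIS1-WT arrays overlap them.

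Fewer of the genes were called between constructs than against control. In MEIS1-deltaHD minus MEIS1-WT, 4 of the 34 genes were lower and 0 higher, against 2.42% and 2.82% of all features. In M33-MEIS1 minus MEIS1-WT, 5 were lower and 1 higher, against 2.35% and 4.1%. In M33-MEIS1 minus MEIS1-deltaHD, 0 were lower and 1 higher, against 0.04% and 0.669%. The medians of the genes were -0.075, -0.10 and 0.047, beside -0.027, -0.0015 and 0.025 over all features. The arrays did not overlap for 9, 12 and 7 of the genes, against 23%, 21.5% and 16% of all features, and nothing about the genes is read from these counts. Monocyte and macrophage markers were higher with MEIS1-deltaHD and M33-MEIS1 than with MEIS1-WT, 7 of 7 in each case, and so were 6 of 7 neutrophil granule markers in each case. Of 5 mast cell and basophil markers 3 were higher with MEIS1-deltaHD and 5 with M33-MEIS1, and 2 of 4 progenitor markers were lower with each. The part of these markers in the values was not tested.

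Nupr1 separated the constructs most, by the probe set used for each gene. Its log2 difference was -1.23 ± 0.12 (adjusted p = 6.97e-08) in MEIS1-deltaHD minus MEIS1-WT and -0.74 ± 0.12 (adjusted p = 9.99e-05) in M33-MEIS1 minus MEIS1-WT, both called under every alternative tried. In M33-MEIS1 minus MEIS1-deltaHD it was 0.49 ± 0.12 (adjusted p = 0.0463). That last call was lost without replicate 2 of MEIS1-WT or replicate 1 or 2 of MEIS1-deltaHD or replicate 1, 2 or 3 of M33-MEIS1 or replicate 1 of MIY control (0.39 to 0.50), and also with either other offset, scaling or filter, the mean of probe sets, probe sets tested singly or no intensity trend. The second Nupr1 probe set gave smaller values in these comparisons, at -0.72, -0.59 and 0.13 (adjusted p = 2.15e-05, 0.000195 and 0.691 when tested singly). Its MEIS1-deltaHD minus MEIS1-WT value was smaller in size than those of Ddit4 and Vldlr. Ddit4 was lower with MEIS1-deltaHD than with MEIS1-WT by -0.94 ± 0.12 (adjusted p = 1.17e-05), and with M33-MEIS1 by -0.59 ± 0.12 (adjusted p = 0.00246). The first of these held under every alternative, and the second was lost only without the intensity trend (-0.59). Ppp1r15a was lower with M33-MEIS1 than with MEIS1-WT (-0.61 ± 0.13 (adjusted p = 0.00262)), again lost only without the intensity trend. Its MEIS1-deltaHD minus MEIS1-WT value of -0.41 ± 0.13 (adjusted p = 0.0656) was not called, but was without replicate 2 or 3 of MIY control (-0.41) and in a fit of only the 2 groups.

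Ddit3 was lower with MEIS1-deltaHD than with MEIS1-WT (-0.55 ± 0.15 (adjusted p = 0.0251)), and it was lower with M33-MEIS1 as well (-0.49 ± 0.15 (adjusted p = 0.0434)). The MEIS1-deltaHD call was lost without replicate 3 of MEIS1-WT or replicate 1 or 2 of MEIS1-deltaHD (-0.46 to -0.42), and with median scaling, no filter, the mean of probe sets or no intensity trend. The M33-MEIS1 call was lost without replicate 1, 2 or 3 of MEIS1-WT or replicate 2 or 3 of M33-MEIS1 or replicate 1 of MIY control (-0.55 to -0.39), and under those 4 settings, an offset of 1, quantile normalization or probe sets tested singly. Vldlr was lower with MEIS1-deltaHD than with MEIS1-WT (-0.96 ± 0.23 (adjusted p = 0.00916)), a call lost without replicate 2 of MEIS1-WT or replicate 2 of MEIS1-deltaHD (-0.89 to -0.66) and with the mean of its probe sets (-0.46), without shared probe sets (-0.38) or without the intensity trend. In M33-MEIS1 minus MEIS1-WT, Vldlr had -0.69 ± 0.23 (adjusted p = 0.0737), which was called without replicate 2 or 3 of MEIS1-deltaHD (-0.69) and in a fit of only the 2 groups. Psat1 was lower with M33-MEIS1 than with MEIS1-WT (-0.25 ± 0.07 (adjusted p = 0.031)), a call lost without replicate 1, 2 or 3 of MEIS1-WT or replicate 2 or 3 of M33-MEIS1 (-0.26 to -0.23), and with median scaling or no intensity trend. Slc38a2 was the member higher with M33-MEIS1 than with MEIS1-WT (0.31 ± 0.089 (adjusted p = 0.039)), a call lost without replicate 1, 2 or 3 of MEIS1-WT or replicate 2 of MEIS1-deltaHD or replicate 1 or 2 of M33-MEIS1 (0.25 to 0.34), and with median scaling, no filter, the mean of probe sets or no intensity trend.

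Slc7a1 was called lower with MEIS1-deltaHD than with MEIS1-WT in a fit of only the 2 groups (-0.22), and with M33-MEIS1 than with MEIS1-WT by the mean of its probe sets (-0.28). Chac1 and Sesn2 were called between constructs only when an array was left out. Chac1 had -0.32 ± 0.12 (adjusted p = 0.162) in MEIS1-deltaHD minus MEIS1-WT and was called without replicate 3 of MEIS1-deltaHD (-0.46). Sesn2 was called without replicate 1 of MEIS1-WT (-0.53) in MEIS1-deltaHD minus MEIS1-WT and without replicate 1 of MEIS1-WT (-0.55) in M33-MEIS1 minus MEIS1-WT.

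For the other genes the intervals show how far the constructs could differ. Asns differed by 0.048 ± 0.085 in MEIS1-deltaHD minus MEIS1-WT, with a 95% interval of -0.13 to 0.22. The Slc7a5 interval in that comparison was -0.27 to 0.13, and that of Gpt2 -0.32 to 0.26. Cth, which was near background with every construct, had the wide interval of -0.24 to 0.86. For Atf5 the interval was -0.53 to 0.042, so that a decrease by 0.53 on the log2 scale is not outside it.

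**Figure D4:**
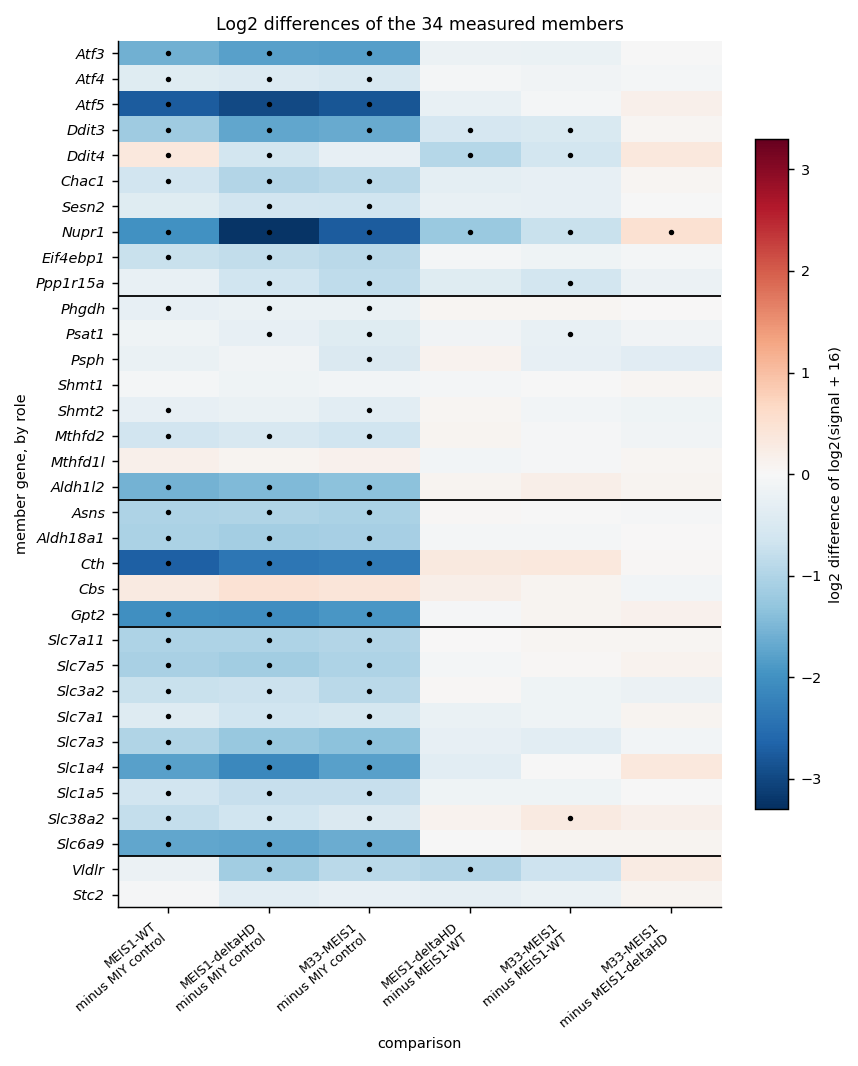
Log2 differences of the 34 genes (rows, grouped by role: factors and regulators, serine and one-carbon enzymes, other enzymes, transporters, surface and secreted targets) in 6 comparisons (columns), with a dot where the adjusted p was below 0.05. The 3 columns against MIY control hold 25, 28 and 29 dots, and the 3 between constructs 4, 6 and 1.

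Tested singly, the 74 kept probe sets of the list were also mostly lower. With MEIS1-WT 46 were lower and 3 higher, with MEIS1-deltaHD 52 and 2, and with M33-MEIS1 54 and 2. Over all 31762 probe sets, 17.8%, 20.8% and 17.1% were lower and 13.1%, 13.7% and 11.8% higher.

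Other genes of the pathway, outside the list of 34, were also lower. All 16 measured genes of a list of further ATF4 targets and partners were lower with each construct, with medians of -0.51, -0.55 and -0.59. Over all features 19.4%, 22.7% and 18.3% were called lower. Most genes of this list encode aminoacyl-tRNA synthetases, and it was chosen with earlier results of these data known. Trib3, a pseudokinase that ATF4 and Ddit3 induce, averaged 87.1 ± 10.2 with MEIS1-WT, 60.98 ± 17.4 with MEIS1-deltaHD, 79.5 ± 9.57 with M33-MEIS1 and 834 ± 140.1 in MIY control. It differed by -3.04 ± 0.14 (adjusted p = 3.88e-14) for MEIS1-WT, -3.48 ± 0.14 (adjusted p = 4.79e-15) for MEIS1-deltaHD and -3.14 ± 0.14 (adjusted p = 6.18e-14) for M33-MEIS1. Cebpg, a dimer partner of ATF4, differed by -1.55 for MEIS1-WT, -1.79 for MEIS1-deltaHD and -1.44 for M33-MEIS1. Cebpb, another C/EBP factor and one that also marks monocytes, differed by -1.62 for MEIS1-WT, -0.94 for MEIS1-deltaHD and -0.87 for M33-MEIS1. The seryl-tRNA synthetase gene Sars differed by -0.94 for MEIS1-WT, -1.10 for MEIS1-deltaHD and -1.15 for M33-MEIS1.

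The kinases of eIF2 did not move as a group. Of the 4 measured genes Eif2ak1, the heme-regulated kinase, was higher, at 0.46 for MEIS1-WT, 0.57 for MEIS1-deltaHD and 0.50 for M33-MEIS1. Eif2ak2, the kinase activated by double-stranded RNA and induced by interferon, was lower, at -1.20 for MEIS1-WT, -1.24 for MEIS1-deltaHD and -1.01 for M33-MEIS1. Eif2ak4, the kinase that senses uncharged tRNA, differed by 0.15 for MEIS1-WT, 0.026 for MEIS1-deltaHD and 0.067 for M33-MEIS1. Eif2ak3, the kinase of the endoplasmic reticulum, differed by 0.14 for MEIS1-WT, 0.0096 for MEIS1-deltaHD and 0.14 for M33-MEIS1. Neither of these was called.

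Chaperone genes of the unfolded protein response went the other way in part. Of 12 measured genes 5 were higher and 2 lower with MEIS1-WT, 7 and 4 with MEIS1-deltaHD, and 8 and 2 with M33-MEIS1. The shares of all features were 13.3%, 13.8% and 12.4% higher and 19.4%, 22.7% and 18.3% lower. Sdf2l1, a chaperone cofactor of the endoplasmic reticulum, differed by 1.34 for MEIS1-WT, 1.94 for MEIS1-deltaHD and 1.64 for M33-MEIS1. Creld2, another secretory pathway gene induced by that stress, differed by 1.16 for MEIS1-WT, 1.42 for MEIS1-deltaHD and 1.29 for M33-MEIS1. Herpud1, which serves degradation at the endoplasmic reticulum and is also an ATF4 target, was lower, at -0.47 for MEIS1-WT, -0.88 for MEIS1-deltaHD and -0.76 for M33-MEIS1. The list medians were 0.25, 0.32 and 0.44.

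Lists of other stress responses showed mixed calls. Over all features 13.3%, 13.8% and 12.4% were called higher and 19.4%, 22.7% and 18.3% lower with the constructs in turn. Nothing is read from counts of 1 or 2 genes in these short lists. Of 9 measured hypoxia targets 6, 5 and 6 were higher and 1 lower with each construct. Egln3, an oxygen sensor, differed by 1.69 for MEIS1-WT, 1.49 for MEIS1-deltaHD and 1.57 for M33-MEIS1, and Vegfa, a growth factor that ATF4 can also induce, by -0.95 for MEIS1-WT, -1.33 for MEIS1-deltaHD and -1.26 for M33-MEIS1. Of 6 NRF2 targets 2, 3 and 2 were higher and 1 was lower, which was Hmox1, at -0.86 for MEIS1-WT, -1.05 for MEIS1-deltaHD and -1.05 for M33-MEIS1. Of 5 measured p53 targets 2, 0 and 1 were higher and 2 were lower in each comparison. The lower ones were the cell cycle inhibitor Cdkn1a, at -0.58 for MEIS1-WT, -1.04 for MEIS1-deltaHD and -0.84 for M33-MEIS1, and the cell death gene Bbc3, at -0.49 for MEIS1-WT, -1.15 for MEIS1-deltaHD and -0.97 for M33-MEIS1.

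**Figure D5:**
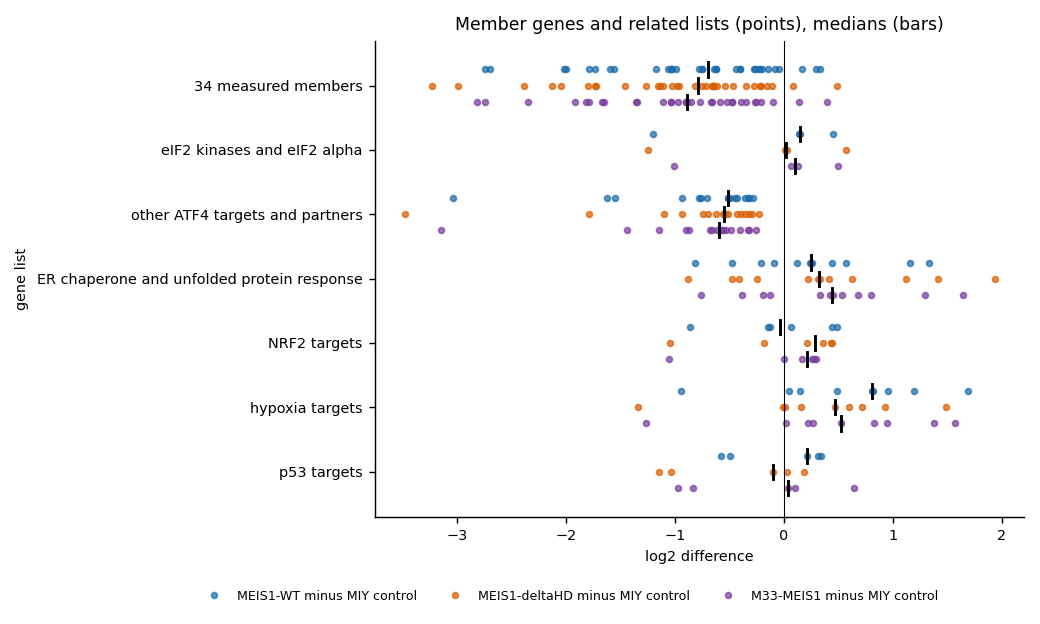
Log2 differences of the 34 genes and of 6 related lists (points) with list medians (bars), each construct minus MIY control. The points of the 34 genes and of the further ATF4 targets lie mostly or all below 0, and those of the other lists lie on both sides.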

How the data were processed

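The deposited values are array intensity on a linear scale, made by the authors with GCOS 1.2 per the submitters' processing notes, and every array had a mean of 100 after the lowest and highest 2% were left out. How background was taken off and probes were summarised is not stated in the sources used here, and no detection call was used. From 45101 probe sets 64 controls were left out, and 34945 carried 1 symbol, 932 several and 9160 none. Signals became log2(signal + 16). Probe sets brighter than their array's 40th percentile on 3 or more arrays were kept, leaving 31762, and the brightest per gene was used.

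The 4 group means were estimated from all 12 arrays in 1 model, by limma 3.58.1 under R 4.3.3 (eBayes with an intensity trend), with two-sided p-values adjusted by Benjamini and Hochberg over all 20015 features in each comparison. The script was tested on simulated data. P-values measure the spread between these samples, and 3 arrays a group limit the precision: an exact permutation test of 3 against 3 cannot go below p = 0.1. Deviations of same-numbered arrays correlated at -0.039 to 0.025, with 0 of 18 pairs over 0.1, so no shared effect of the number was seen. These correlations cannot show whether same-numbered samples were obtained together. Values in every array are given for members past the test with a log2 difference of at least 1 in size against control, and for Atf4; other genes are named from lists, up to 4 per list. Members and lists were chosen with earlier results of these data known. The alternatives tried were the offset, the scaling, the filter, the probe set per gene, a replicate block, the arrays in the fit, the intensity trend and leaving out each array.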

Additional observations from a re-analysis of the deposited data

Results flagged for a closer look

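Ddit4 drew attention because it was called in opposite directions against MIY control, higher with MEIS1-WT (0.34 ± 0.12 (adjusted p = 0.0401)) and lower with MEIS1-deltaHD (-0.61 ± 0.12 (adjusted p = 0.000374)). The difference itself was tested: MEIS1-deltaHD minus MEIS1-WT was -0.94 ± 0.12 (adjusted p = 1.17e-05) on the log2 scale, with a 95% interval of -1.20 to -0.69. All 3 MEIS1-deltaHD arrays lay below all 3 MEIS1-WT arrays.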

How the results depend on the processing

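Of the single-gene values under the alternatives, 4709 kept their side of the threshold. The called values among these kept their sign, while uncalled ones may have changed it. A further 113 lost a call and 31 gained one with the sign kept. The other 25 changed sign and were called in the main fit, the alternative or both. The calls against MIY control that held under every alternative numbered 17 of 25 for MEIS1-WT, 17 of 28 for MEIS1-deltaHD and 19 of 29 for M33-MEIS1. Between constructs 2 of 4, 1 of 6 and 0 of 1 held, for MEIS1-deltaHD minus MEIS1-WT, M33-MEIS1 minus MEIS1-WT and M33-MEIS1 minus MEIS1-deltaHD.

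With MEIS1-WT minus MIY control the count of higher genes, 1, was 0 with an offset of 1, quantile normalization, no filter or no intensity trend, and 2 with median scaling, the mean of probe sets or probe sets tested singly. With MEIS1-deltaHD the count of 0 higher was 1 with quantile normalization, the mean of probe sets or single probe sets and 4 with median scaling, under which 17 and not 28 were lower. With M33-MEIS1 the count of 0 higher was 1 with median scaling, the mean of probe sets or single probe sets. In MEIS1-deltaHD minus MEIS1-WT the count of 4 lower was 2 with the mean of probe sets or no trend. In M33-MEIS1 minus MEIS1-WT the 1 higher became 0 with median scaling, no filter, the mean of probe sets or no trend, and the 5 lower became 3 with median scaling and 1 with no trend. In M33-MEIS1 minus MEIS1-deltaHD the 1 higher became 0 with either other offset, either other scaling, either other filter, the mean of probe sets, single probe sets or no trend. Leaving out each array gave 23 to 26, 27 to 30 and 27 to 30 lower and 0 to 1, 0 and 0 to 1 higher against control, for MEIS1-WT, MEIS1-deltaHD and M33-MEIS1 in turn. Between constructs it gave 2 to 5, 3 to 6 and 0 lower and 0, 0 to 1 and 0 to 1 higher.

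Median scaling reversed Phgdh (0.091 for MEIS1-WT, 0.29 for MEIS1-deltaHD and 0.15 for M33-MEIS1), Shmt2 (0.10 with MEIS1-WT and 0.015 with M33-MEIS1), and, with MEIS1-deltaHD, Atf4 (0.042), Psat1 (0.23) and Shmt1 (0.34). By construction it moves all values of an array together. The mean of probe sets reversed Shmt1 (0.44, 0.33 and 0.25), whose probe sets disagree. Cbs ranged over -0.83 to 0.61 with MEIS1-deltaHD and -0.77 to 0.51 with M33-MEIS1 when an array was left out, since this switched which of its 2 dim probe sets was the brighter. The replicate block gave the same counts of calls, 24, 28, 29, 4, 5 and 0 lower and 1, 0, 0, 0, 1 and 1 higher, and only 1 of 12 arrays correlated best with its own number. Dim genes such as Cth, Aldh1l2, Slc7a3, Cbs and Stc2 lie near background, where the offset sets the size of the difference.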
